A study of Mus musculus with 2 samples.

Results

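Sebocytes, the lipid-producing cells of the sebaceous gland (SG), were described in the epidermis of newborn control and Gli2EKO mice. The cells were chosen by a rule on their own transcripts. A cell counted as a sebocyte when at least 2 of the 3 genes Cidea, Fa2h and Cyp2g1 were detected, when Pparg had at least 1 unique molecular identifier (UMI, a counted transcript) and when Col1a1 and Col1a2 together stayed under 20 UMIs per 10000. The rule selected 70 of 8206 cells, 46 of 4844 in the control library and 24 of 3362 in the Gli2EKO library. Both libraries came from epidermal whole mounts of back skin at postnatal day 2, a stage at which the first SGs form along the growing hair follicles. In Gli2EKO mice K14Cre deleted a floxed Gli2 allele, so that the keratin 14 promoter limits the loss of Gli2 to keratinocytes and their descendants, sebocytes included. Control mice were littermates labelled WT that carried the floxed allele without Cre, and both groups shared the C57Bl/6N background. Each genotype had 1 library, and the number of mice behind a library is not given in the sources used here. There was therefore no replicate and no test. All intervals are exact 95% intervals that cover counting error only, and a gene is called different between libraries when it was past 2-fold.

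Sebocytes arise from progenitors of the upper hair follicle. They fill with droplets of triglycerides, wax esters, cholesterol esters and squalene, lose contact with the basal layer and finally burst, releasing their whole content as sebum. Pparg, a nuclear receptor for fatty acids, is required for their formation, and loss of Scd1, the desaturase that makes monounsaturated fatty acids, leaves mice with hypoplastic SGs. The 2 groups were compared because Gli2 transmits Hedgehog signals, which act both on follicle growth and on the SG.

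The promoters of 2 sebocyte lipid genes are shown because fatty acid and cholesterol genes varied together from cell to cell, as described further on. Each is the 250 bases before the annotated start of the gene's canonical transcript in GRCm39 (GENCODE M39), read 5′ to 3′ on the gene's own strand. Capitals mark the letters TCACNCCAC, a sterol response element bound by SREBP, in Acaca (acetyl-CoA carboxylase, the first committed step of fatty acid synthesis), and the letters CCAAT or their reverse complement, the NF-Y box, in Scd1.
Acaca, chr11:84063698-84063947: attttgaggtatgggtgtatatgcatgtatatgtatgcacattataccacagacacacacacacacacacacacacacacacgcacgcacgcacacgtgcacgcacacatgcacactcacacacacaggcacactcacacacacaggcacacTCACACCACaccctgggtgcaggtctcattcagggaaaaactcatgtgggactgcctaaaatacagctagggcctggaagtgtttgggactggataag
Scd1, chr19:44396341-44396590: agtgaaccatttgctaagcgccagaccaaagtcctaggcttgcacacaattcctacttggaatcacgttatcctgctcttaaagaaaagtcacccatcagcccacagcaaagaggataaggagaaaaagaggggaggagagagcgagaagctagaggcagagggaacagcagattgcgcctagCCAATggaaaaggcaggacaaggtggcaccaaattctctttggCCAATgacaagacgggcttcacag
The Acaca match lies at -98 to -90 from the start. Scd1 holds CCAAT at -67 to -63 and at -24 to -20. Both strands of 21247 protein-coding promoters were searched. CCAAT was present in 16 of 23 promoters of the cholesterol synthesis list (69.6%) and in 11 of 32 of the fatty acid synthesis list (34.4%), against 36.5% of those 21247. The SREBP letters were found in 3 of 32 fatty acid synthesis promoters (9.38%), those of Acaca, Fasn and Acss2, and in 1 of 23 cholesterol synthesis promoters, that of Hmgcs1, against 1.12% of the 21247. AGGTCA, the core letters of nuclear receptor sites, was found in 18.1% of 149 promoters of the 6 lipid lists and in 13.2% of the 21247, and TATAAA in 7.38% and 11.9%. The paired form of AGGTCA with 1 base between the copies, which overlaps the former and which PPARG can bind, was in none of the 149 and in 8 of the 21247. These matches describe letters in a window and were not tied to binding.

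The control matrix held 71021773 UMIs and the Gli2EKO matrix 48866478, with 6326 and 4296 barcodes, none of which was shared. Control sebocytes had between 2769 and 47205 UMIs with a median of 21382, and Gli2EKO sebocytes between 10638 and 63696 with a median of 30136. The Gli2EKO sebocytes were therefore the deeper group: 21 of 24 had over 20000 UMIs against 23 of 46 control sebocytes, and 7 control sebocytes but 0 Gli2EKO sebocytes had under 10000. Other keratinocytes, by contrast, had medians of 13233 and 13446 UMIs. The summed sebocyte UMIs were 1099116 in control and 826340 in Gli2EKO, of which the largest cell held 4.29% and 7.71%. Mitochondrial UMIs made up a median of 3.46% and 3.12% of sebocyte UMIs and 2.45% and 2.49% in other keratinocytes. Summed levels are given as counts per 1000000 UMIs (CPM), and levels of single cells as UMIs per 10000 of that cell.

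The deleted gene itself could not be used to check the labels here. Gli2 had 25 UMIs in 14 of 46 control sebocytes and 4 UMIs in 4 of 24 Gli2EKO sebocytes, or 22.7 (14.7 to 33.6) and 4.84 (1.32 to 12.4) CPM. In other keratinocytes, however, Gli2 stood at 80.4 and 82.4 CPM. The assay reads the 3′ end of a transcript, and whether those reads fall outside the deleted part of the gene is not given in the sources used here, so the level checks nothing.

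To place the sebocytes in the tissue, their share was taken of all keratinocytes, meaning sebocytes and other keratinocytes together. Other keratinocytes had at least 20 UMIs per 10000 of Krt5, Krt14, Krt1, Krt10, Krt17, Krt25, Krt71 and Krt35 summed. They also had Col1a1 plus Col1a2 under 20 per 10000 and fewer than 2 detected markers each of immune, endothelial and melanocyte cells. Sebocytes were counted without these keratin and marker limits. Sebocytes made up 46 of 2749 control keratinocytes, or 1.67% (1.23 to 2.23, Clopper-Pearson), and 24 of 2201 Gli2EKO keratinocytes, or 1.09% (0.700 to 1.62). The intervals overlapped. As shares of all cells the values were 0.950% (0.696 to 1.26) and 0.714% (0.458 to 1.06). How many sebocytes survived dissociation in each library is not known.

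Most of the selected cells had UMIs of the label's other genes. The lowest Scd1 levels of both libraries, and the lowest Plin2 levels of control, nevertheless reached down to about those of other keratinocytes. Scd1 and Plin2, the pair of the 6 given markers that the rule did not use, were detected in 39 and 45 of 46 control sebocytes and in all 24 Gli2EKO sebocytes. Scd1 (chr19:44382894-44399154, minus strand, GRCm39) ranged from 0 to 181 UMIs per 10000 around a median of 20.8 in control sebocytes, and from 0.212 to 146 around 36.9 in Gli2EKO sebocytes. Both groups spanned almost the whole range from none to over 100, so that they overlapped throughout. Summed Scd1 was 4462 CPM in control and 5437 CPM in Gli2EKO sebocytes against 22.0 and 20.05 CPM in other keratinocytes. Plin2, the coat protein of lipid droplets, ranged from 0 to 37.3 with a median of 5.04 and from 0.940 to 28.5 with a median of 8.49, and again overlapped. Its sums were 641 and 989 CPM, against 26.3 and 27.8 CPM in other keratinocytes. Thinned to 10000 UMIs, Scd1 was found in 33 of 39 control and 23 of 24 Gli2EKO sebocytes (84.6% and 95.8%), and in 4 of 66 control and 0 of 42 Gli2EKO immune and endothelial cells, which should lack it.

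The 4 genes used for the choice are given as a description. Cidea, a droplet fusion protein, had a median of 7.32 per 10000 in control sebocytes (0 to 56.5) and 24.9 in Gli2EKO sebocytes (0.424 to 53.2). Fa2h, which hydroxylates fatty acids, had medians of 12.7 and 20.2, and Cyp2g1, a cytochrome P450, medians of 2.23 and 17.8. Pparg (chr6:115337675-115468268, plus strand) went the other way, with medians of 4.71 (0.243 to 17.5) and 3.48 (0.981 to 9.32). No cell in either library dominated these genes, since the top cell held 11.9% and 9.42% of Cidea and 6.37% and 11.4% of Pparg.

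**Figure D1:**
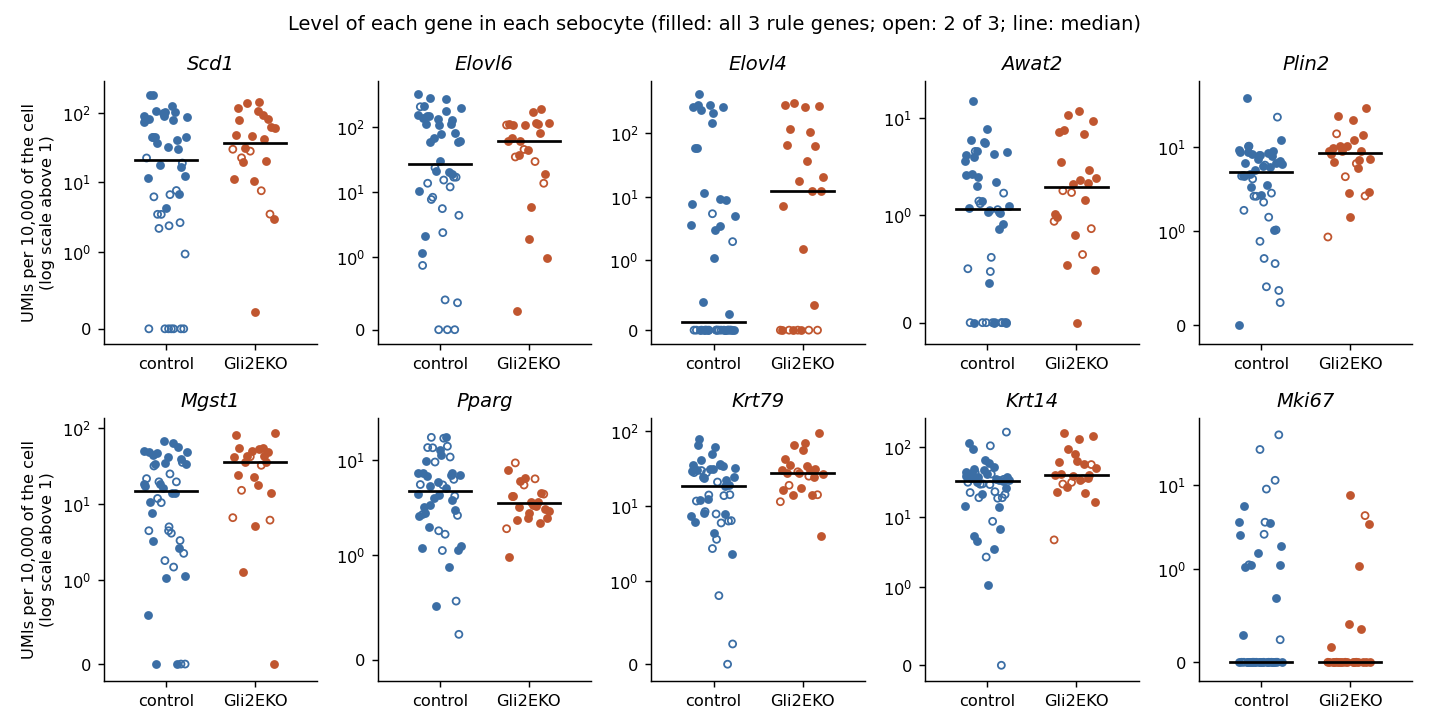
Level of 10 genes in each sebocyte, in UMIs per 10000 of the cell on a log scale above 1, with control and Gli2EKO side by side, filled points for cells with all 3 rule genes, open points for cells with 2 of 3, and a line at the median. Scd1 medians were 20.8 and 36.9 with overlapping ranges, and Elovl4 was near 0 in many cells and above 100 in 8 control and 6 Gli2EKO cells.

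How far a cell had gone in the rule set it apart from the others in the group. All 3 genes were detected in 28 control and 19 Gli2EKO sebocytes, and 2 of 3 in 18 and 5. Control cells with all 3 had a median Scd1 of 60.2 per 10000 and those with 2 a median of 2.27, while in Gli2EKO sebocytes the medians were 48.4 and 22.6. The median UMI count was 24754 and 17819 in the control cells with all 3 and with 2, and 37830 and 22530 in the Gli2EKO cells, so that depth moved with this split. At the limits of the rule, 5 control members and 0 Gli2EKO members had only 1 Pparg UMI. Just outside were 10 control and 5 Gli2EKO cells with at least 2 of the 3 genes but no Pparg UMI, whose median Scd1 was 0 in both libraries. The collagen limit removed 1 control cell with 24.7 collagen UMIs per 10000 and a Scd1 level of 64.9, while the highest collagen level among members was 13.4 in control and 1.60 in Gli2EKO. Cells with Pparg and 1 of the 3 genes numbered 93 and 58.

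Genes of lipid metabolism were compared in sebocytes and other keratinocytes, as a description, because the cells were chosen by lipid genes. The 6 lists, of lipid droplet proteins, fatty acid synthesis, triglyceride and wax ester synthesis, cholesterol synthesis, fatty acid uptake, and peroxisomal oxidation, held 153 genes with Cidea and Fa2h among them. They took 79366 CPM of the control and 109479 CPM of the Gli2EKO sebocytes, against 10783 and 10677 CPM in other keratinocytes. In both libraries 86 of 102 listed genes that could be compared were at least 2-fold higher in sebocytes, against 10.5% of 6052 genes, and 2 were at least 2-fold lower, against 12.5%. Among the lists the median log2 ratio of sebocytes over other keratinocytes was 3.65 in control and 4.42 in Gli2EKO for fatty acid synthesis, 3.67 and 4.14 for triglyceride and wax ester synthesis, 3.33 and 3.23 for droplet proteins, 2.28 and 3.09 for cholesterol synthesis, 2.13 and 2.42 for uptake, and 1.99 and 2.46 for peroxisomes.

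In the fatty acid list 22 of 23 genes were at least 2-fold higher in sebocytes of both libraries, against 10.5% of 6052 genes. Elovl6, which elongates palmitate, was at 7199 CPM in control and 7687 CPM in Gli2EKO sebocytes, against 74.3 and 55.2 CPM in other keratinocytes. Fasn, fatty acid synthase, was at 378 and 445 CPM against 19.9 and 20.8 CPM. Acacb, the acetyl-CoA carboxylase tied to control of oxidation, was at 307 and 300 CPM against 2.53 and 1.92 CPM. Scd2 did not follow, at 62.8 and 105 CPM in sebocytes against 73.8 and 52.6 CPM in other keratinocytes. Scd1, Scd2 and Scd3 are close copies, and how reads shared by copies were assigned was not checked, which makes the values of such families uncertain.

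Of the triglyceride and wax ester genes, Soat1, which esterifies cholesterol, was at 3465 and 4146 CPM in sebocytes against 26.3 and 13.6 CPM in other keratinocytes. Far2, a reductase that makes fatty alcohols for wax, was at 1183 and 1590 CPM against 3.99 and 2.86 CPM. Awat1 and Awat2 join such alcohols to fatty acids. Awat2 stood at 251 and 335 CPM and Awat1 at 272 and 693 CPM, with other keratinocytes at or under 2.92 CPM for either.

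Of the cholesterol synthesis genes 20 of 23 were at least 2-fold higher in sebocytes of both libraries, against 10.5% of 6052 genes. Hmgcs1, an early enzyme of the pathway, was at 1275 and 1305 CPM against 263 and 208 CPM, and Msmo1, a sterol methyl oxidase, at 1724 and 2446 CPM against 109 and 94.3 CPM. Fdps, farnesyl diphosphate synthase on the way to squalene, was at 450 and 662 CPM against 95.7 and 95.8 CPM. Of the uptake genes, Fabp5, the epidermal fatty acid carrier, was at 11316 and 20922 CPM against 1032 and 1513 CPM. Dbi, the acyl-CoA binding protein, was lower in sebocytes, at 339 and 165 CPM against 1146 and 1428 CPM. In the peroxisome list 14 of 18 genes were higher, among them Crat, carnitine acetyltransferase, at 415 and 549 CPM against 2.75 and 3.10 CPM.

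Among 20 lineage and nuclear factors 6 were at least 2-fold higher in sebocytes of both libraries, Pparg of the rule among them, and 5 lower. Of all 6052 genes 10.5% were higher and 12.5% lower. Cebpa, which acts with Pparg in fat-storing cells, was at 277 and 280 CPM against 41.0 and 38.2 CPM. Srebf1, the SREBP gene for fatty acid synthesis, was at 98.3 and 111 CPM against 26.7 and 25.04 CPM. Mc5r, the melanocortin receptor of exocrine glands, had 33 and 25 UMIs. Of the other programmes, 9 of 10 basal keratinocyte genes and 16 of 21 cell cycle genes were at least 2-fold lower in sebocytes of both libraries, as were all 10 compared genes of dissociation stress. Krt14 was an exception among the basal genes, with 4321 and 5442 CPM in sebocytes and 5216 and 8338 CPM in other keratinocytes. Other keratinocytes were chosen by a keratin minimum, with Krt5 and Krt14 among its genes, and sebocytes were not. The choice itself thus raised such keratins in the comparison group. Krt79, a keratin of the SG duct and upper follicle, was at 2288 and 3250 CPM against 447 and 625 CPM.

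A pair of neighbouring keratinocyte groups was set beside the sebocytes as a description. Keratinocytes with at least 2 Pparg UMIs but none of Cidea, Fa2h and Cyp2g1 (101 control and 68 Gli2EKO cells) had Pparg at 296 and 332 CPM, and Lrig1, a marker of upper follicle progenitors, at 718 and 423 CPM, against 136 and 47.2 CPM in sebocytes. Their Scd1 was 17.1 and 31.6 CPM and their Soat1 14.0 and 23.9 CPM, close to other keratinocytes. Keratinocytes with Krt79 at 10 or more per 10000, but neither Pparg nor the 3 genes (85 and 103 cells), had Scd1 at 20.2 and 23.5 CPM and Elovl4 at 389 and 256 CPM. Cells chosen by Pparg or Krt79 without the 3 genes had low Scd1, but this choice itself left out cells with those genes. Both groups were also shallower than the sebocytes, with median UMIs of 14048 and 14612.5 for Pparg and 13676 and 13806 for Krt79. Apoe, a lipid carrier, was at 7126 and 6874 CPM in the Pparg-positive group and at 6967 and 8711 CPM in sebocytes.

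**Figure D2:**
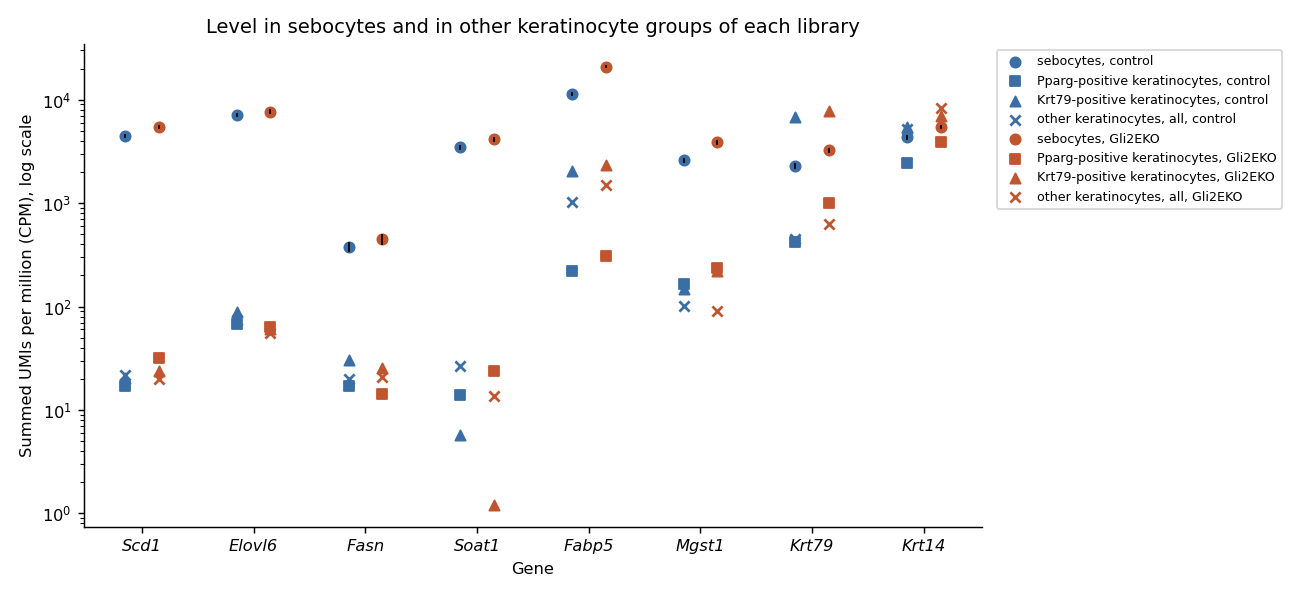
Summed CPM on a log scale of 8 genes in sebocytes (circles with exact 95% counting intervals), Pparg-positive keratinocytes (squares), Krt79-positive keratinocytes (triangles) and all other keratinocytes (crosses), for control and Gli2EKO. Scd1 was 4462 and 5437 CPM in sebocytes and under 32 CPM in the other 3 groups, while Krt14 was between 2445 and 8338 CPM in every group.

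Outside the 4 rule genes, the 15 genes with the largest sebocyte ratio among 3290 eligible genes were ranked by the lower of the 2 libraries, and their log2 ratios ran from 8.59 to 10.46. Of these, AAdacl4fm3, Aadacl4fm4, Aadacl2fm2 and Ces4a, encode predicted or known esterases and deacetylases. AAdacl4fm3 was at 261 and 461 CPM and at 0.173 and 0.152 CPM in other keratinocytes. Awat1, Elovl3, which elongates saturated fatty acids, Hsd3b6, a steroid dehydrogenase, and Pnpla5, a lipase, also belonged to lipid metabolism. Cyp3a57 and Cyp1a1 encode cytochromes P450, Panx3 a channel protein and Serpina3j a protease inhibitor. Hsd3b6 had 492 and 501 UMIs, with 0.397 and 0.183 CPM in other keratinocytes. The remaining genes were Tmem45b, Gm33432 and 4930449A18Rik. Members of the Aadacl4, Cyp3a and Serpina3 families have close copies, so their values are uncertain.

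The selected cells of both libraries formed a wide range rather than a uniform group. The summed level of the 6 lipid lists ran from 88.6 to 1680 UMIs per 10000 in control sebocytes, with a median of 637, and from 169 to 1797 with a median of 972 in Gli2EKO sebocytes. The middle 50% lay between 262 and 1211 in control and between 636 and 1434 in Gli2EKO. Other keratinocytes had medians of 91.6 and 86.1 and highest values of 850 and 705, so that 18 of 46 and 17 of 24 sebocytes exceeded all of them and 32 and 21 exceeded their 99th percentile. The low end of the selected cells thus overlapped other keratinocytes. Whether the cells at that end were sebocytes was not tested.

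Within this range the lipid lists moved together. Across the 46 control sebocytes fatty acid synthesis without Fa2h correlated with cholesterol synthesis at Spearman's rho = 0.88 (Pearson's r = 0.82) and with triglyceride and wax ester synthesis at 0.88 (0.82). Across the 24 Gli2EKO sebocytes the values were 0.81 (0.76) and 0.84 (0.81). Its rho with the UMI count of the cell was 0.13 and 0.38. Cells of a library share its depth and its free RNA, and these values are descriptions. They and the correlations that follow include the cells at the low end, which overlapped other keratinocytes. The cell cycle list ran against the lipid lists, with a rho of -0.58 in control (r = -0.42) and -0.82 in Gli2EKO (r = -0.65). Over 20 cell cycle UMIs per 10000 were found in 12 control sebocytes, 6 of them with 2 of the 3 rule genes, and in 3 Gli2EKO sebocytes. Of these, 4 of the 12 control cells and 0 of the 3 Gli2EKO cells lay above the lipid median of their library. Scd1 followed Awat2 (rho = 0.67 and 0.77) and Krt79 (0.72 and 0.47).

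Elovl4 (chr9:83660744-83688430, minus strand), which makes fatty acids of very long chain length, was near 0 in some sebocytes and very high in others. It was detected in 23 of 46 control and 16 of 24 Gli2EKO sebocytes, with medians of 0.115 and 12.2 and highest values of 420 and 299 per 10000. Under 1 UMI per 10000 was found in 25 and 9 cells, and 100 or more in 8 and 6 cells. With Elovl4 itself left out of the sum, the median level of the lipid lists was 423 in the 25 control cells low in Elovl4 and 1125 in the 8 high ones, and 722 and 1266 in the corresponding Gli2EKO cells. The cells overlapped, since the lists reached 1072 and 836 in cells low in Elovl4 and went down to 653 and 479 in the high ones. Thinned to 10000 UMIs, 51.3% of control and 62.5% of Gli2EKO sebocytes had Elovl4, against 4.55% and 0% of immune and endothelial cells. By rank correlation over the cells of each library, the genes most like Elovl4 among 2651 compared were Pctp, a phosphatidylcholine transfer protein (rho = 0.87 and 0.95), Cyp4f39, an omega-hydroxylase of very long fatty acids (0.86 and 0.94), and Awat1 (0.82 and 0.88). This comparison was added after the values were seen.

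**Figure D3:**
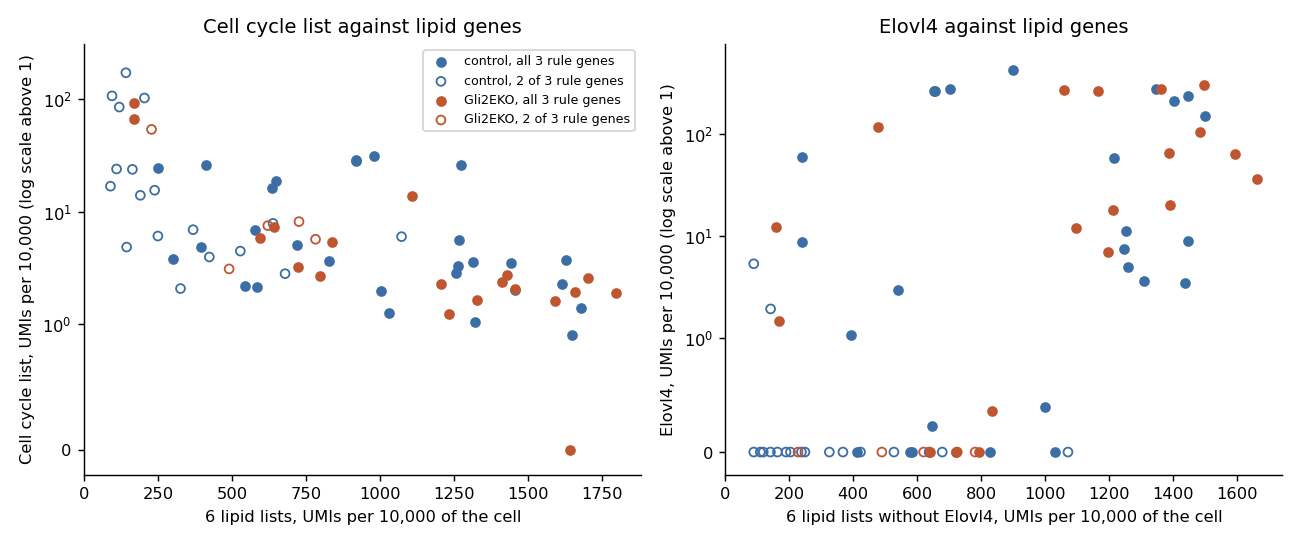
Each point is a sebocyte, with the cell cycle list against the summed level of the 6 lipid lists on the left and Elovl4 against the same lists without Elovl4 on the right, in UMIs per 10000 with a log scale above 1 on the y axis, filled for cells with all 3 rule genes and open for 2 of 3. The cell cycle list had a rho of -0.58 and -0.82 with the lipid lists, though 4 of 12 control cells over 20 cell cycle UMIs per 10000 lay above the control lipid median of 637, and Elovl4 had a rho of 0.53 and 0.60 with the other lipid genes.

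The comparison of genotypes addressed whether sebocytes differ in expression when keratinocytes lack Gli2. The 46 control and 24 Gli2EKO cells gave 5476 genes whose UMIs summed to 50 or more. Of these, 54 (0.986%) were at least 2-fold higher and 399 (7.29%) at least 2-fold lower in Gli2EKO sebocytes. This excess of lower genes was not seen in cells thinned to 5000 UMIs. There 32 (4.17%) were higher and 24 (3.13%) lower of 767 genes that still reached 50 UMIs, with a median log2 ratio of 0.20. The rule was applied again after thinning and kept 30 control and 16 Gli2EKO cells, so that cells, genes and depth changed together. The excess stayed in cells with all 3 rule genes (43 higher and 266 lower of 4329). It also stayed in members with at least 10000 UMIs (51 and 356 of 5371). That limit kept 39 of 46 control and all 24 Gli2EKO sebocytes, so most of the data were the same. Without thinning the median log2 ratio over all genes was -0.16 in sebocytes and -0.09 in other keratinocytes. Genes of lipid metabolism lay above that median. Of 102 genes in the 6 lipid lists, 7 were at least 2-fold higher and 2 at least 2-fold lower, with a median log2 ratio of 0.42, and 64 had a counting interval above 0 and 6 below. In other keratinocytes the median of these lists was -0.10.

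The higher lipid level went with the larger share of cells that carried all 3 rule genes. When only those 28 control and 19 Gli2EKO cells were compared, the median log2 ratio of the 6 lipid lists was 0.11, or 0.20 without 1 Gli2EKO cell that is described with the cell cycle genes. Their summed level was then 104566 CPM in control and 116980 CPM in Gli2EKO, whereas cells with 2 of 3 genes had 30959 and 55803 CPM. The part of depth, cell state and genotype in this difference was not tested.

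The sterol and fatty acid lists showed the same pattern. Over all 5476 genes 0.986% were at least 2-fold higher and 7.29% at least 2-fold lower. The median log2 ratio was 0.46 for fatty acid synthesis (2 of 23 genes at least 2-fold higher, 0 lower) and 0.50 for cholesterol synthesis (1 of 21 higher, 0 lower). In cells with all 3 rule genes these medians were 0.10 and 0.21, or 0.20 and 0.30 without the same cell. Scd1 had a log2 ratio of 0.29 (0.23 to 0.34) over all sebocytes and of -0.14 in cells with all 3 genes (-0.046 without the same cell), so that its direction turned with the choice of cells. Fasn likewise had 0.24 and -0.15, Elovl6 0.09 and -0.29, and Soat1 0.26 and -0.19. Plin2 kept its direction, with 0.63 (0.48 to 0.77) over all sebocytes and 0.36 in cells with all 3 genes. Pparg, which the rule used, stood at 543 and 392 CPM. Krt79 had log2 ratios of 0.51 and 0.21.

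Some lipid genes differed by more. Scd3, a desaturase related to Scd1, was at 183 CPM in control and 702 CPM in Gli2EKO sebocytes, a log2 ratio of 1.94 (1.71 to 2.18), and of 1.62 in cells with all 3 rule genes. It had UMIs in 16 sebocytes of each library, and the top cell held 22.4% and 27.4% of them. Awat1 had a log2 ratio of 1.35 and its relative Dgat2l6 one of 1.39, with top cells at 29.4% and 18.7% and at 35.4% and 29.5%. Elovl3 was at 998 and 2132 CPM (log2 ratio 1.09). Its median was 3.88 per 10000 in control and 13.5 in Gli2EKO sebocytes, with highest values of 28.8 and 51.6 and overlapping ranges. Mgll, monoglyceride lipase, was at 1522 and 3087 CPM (1.02), and Fabp5 had a log2 ratio of 0.89, beside 0.55 in other keratinocytes. Lower lipid genes were Dbi (-1.04) and Acsl4, an acyl-CoA synthetase (-1.002), with top cells at 36.0% and 28.8% of the Gli2EKO UMIs.

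**Figure D4:**
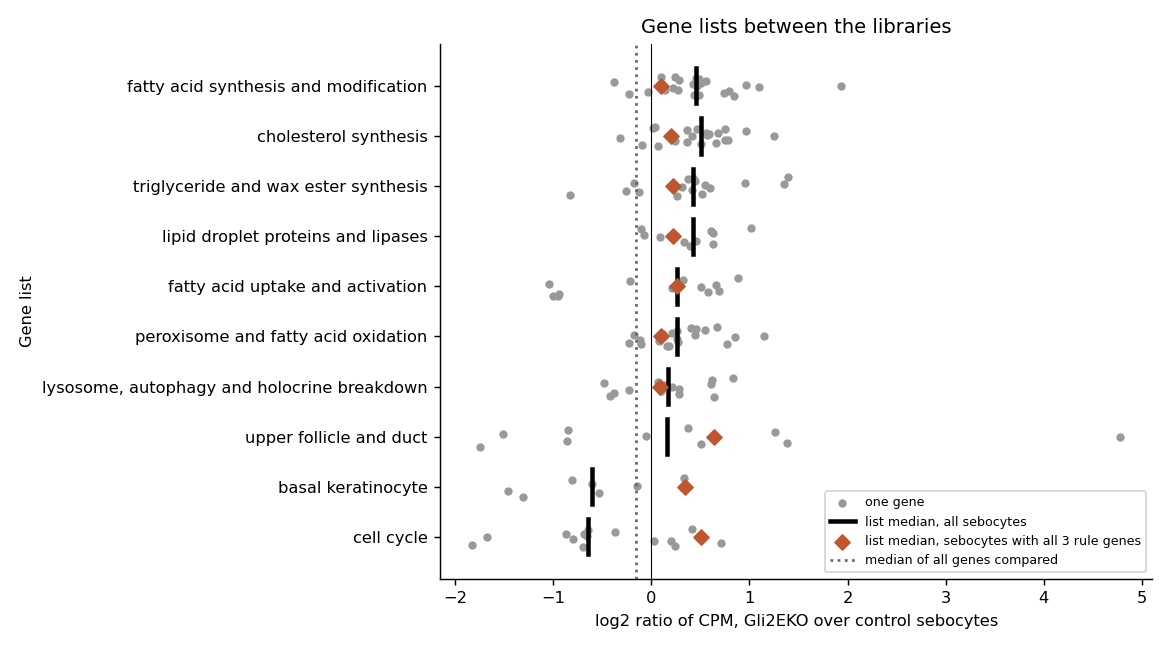
Log2 ratio of CPM, Gli2EKO over control sebocytes, on the x axis for 10 gene lists on the y axis, with a grey point for each compared gene, a black bar at the list median over all sebocytes, a diamond at the median over sebocytes with all 3 rule genes, and dotted and solid vertical lines at the median of all genes and at 0. The fatty acid and cholesterol medians of 0.46 and 0.50 moved to 0.10 and 0.21 in cells with all 3 genes, and the cell cycle median from -0.65 to 0.50, which was -0.68 without 1 Gli2EKO cell.

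Among 3130 genes with at least 100 UMIs, detection in at least 25% of the sebocytes of a library and no cell with more than 25% of their UMIs, 9 were at least 2-fold higher and 115 at least 2-fold lower in Gli2EKO sebocytes. The 10 highest were Tubb2a, Dhcr7, Tex264, Ddt, Elovl3, Tuba1c, Hint3, Klk8, Mgll and Lgalsl, with log2 ratios from 0.99 to 1.32. Tubb2a and Tuba1c encode tubulins and had log2 ratios of 1.32 and 1.09. Dhcr7, the last enzyme of one route to cholesterol, was at 86.4 and 206 CPM, a log2 ratio of 1.25 (0.88 to 1.63). Tex264 encodes a receptor for breakdown of the endoplasmic reticulum and was at 106 and 247 CPM. Klk8 is a kallikrein protease of the epidermis, at 48.2 and 99.2 CPM. All 10 kept a positive log2 ratio in cells with all 3 rule genes, from 0.68 for Mgll to 1.26 for Tubb2a and Ddt. These cells are part of those that ranked the genes and held most of their Gli2EKO UMIs (169 of 170 for Dhcr7). A kept sign was therefore likely in advance and adds little.

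The 10 lowest genes were led by Ptch1, the Hedgehog receptor and a direct target of the pathway. Ptch1 (chr13:63656142-63721412, minus strand) ranged from 0 to 11.6 UMIs per 10000 in control sebocytes with a median of 0.533, and from 0 to 1.07 with a median of 0 in Gli2EKO sebocytes. It had 107 UMIs in 34 of 46 control sebocytes and 18 UMIs in 10 of 24 Gli2EKO sebocytes, or 97.4 (79.8 to 118) and 21.8 (12.9 to 34.4) CPM, and the ranges overlapped at the low end. The log2 ratio was -2.13 (-2.97 to -1.43) over all sebocytes and -2.04 in cells with all 3 rule genes. Of the 107 control UMIs the top cell held 24, or 22.4%, and the next cells held 14, 13 and 8. The top cell carried all 3 rule genes, so it held 24 of the 63 control UMIs in such cells. The ratio without these cells was not computed. In other keratinocytes Ptch1 was at 161 and 115 CPM, a log2 ratio of -0.49, and in immune and endothelial cells at 68.6 and 30.6 CPM. Thinned to 10000 UMIs, it was found in 41.0% of control sebocytes against 30.3% of control immune and endothelial cells, and in 16.7% against 14.3% in Gli2EKO. The CPM of Gli2EKO sebocytes was thus not above that of the cells used as background, and both thinned shares lay within the counting intervals of those cells (19.6 to 42.9% and 5.43 to 28.5%). The other Hedgehog genes had few UMIs. Gli1, the other common target, had 12 and 5 UMIs, Hhip, an inhibitor of the ligand, 27 and 0, and Gas1, a co-receptor, 53 and 21. Gli3 had 71 and 10 UMIs, but 62.0% of the control UMIs came from 1 cell, and in cells with all 3 rule genes its log2 ratio was 0.14. In the Hedgehog list 2 of 3 compared genes were at least 2-fold lower, Ptch1 and Gli3, against 7.29% of all 5476 genes. The third was Gas1 at -0.90. With so few genes, nothing is read from this count.

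The remaining genes of this group were Arl15, Csgalnact1, Mtss1, Ext1, Aff1, Peg3, Lrig1, Dock1 and Adk, with log2 ratios from -1.83 to -1.497. Arl15, a small GTPase, was at 420 and 117 CPM (-1.83), and at -1.87 in cells with all 3 rule genes. Csgalnact1 and Ext1 make glycosaminoglycan chains and had log2 ratios of -1.80 and -1.54, which were -0.26 and -0.86 in cells with all 3 genes. Lrig1 had 149 UMIs in control and 39 in Gli2EKO sebocytes, a log2 ratio of -1.51 (-2.07 to -1.01), which was -0.74 in cells with all 3 genes (-1.27 without the cell described with the cell cycle genes) and -0.71 in other keratinocytes.

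The genes that were lower in Gli2EKO sebocytes were longer than the others. The median span from start to end in the genome was 95.7 kb for the 399 genes at least 2-fold lower, 8.19 kb for the 54 higher, 29.0 kb for all 5476 and 29.3 kb for the lipid lists. By span, 2.02% of genes under 10 kb, 2.63% of those from 10 to 30 kb, 7.85% of those from 30 to 100 kb and 21.7% of those of 100 kb or more were at least 2-fold lower. From the shortest to the longest class the median log2 ratio was 0.17, -0.01, -0.33 and -0.62 in sebocytes and 0.12, -0.01, -0.18 and -0.26 in other keratinocytes. Ptch1 spans 65.3 kb, Lrig1 95.7 kb and Arl15 363 kb, while Elovl3 spans 4.22 kb and Tubb2a 4.45 kb. The part of gene length in these ratios was not tested.

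The values of progenitor and proliferation genes rested in part on single cells. The cell cycle list had a median log2 ratio of -0.65 over all sebocytes, with 0 of 14 genes at least 2-fold higher and 2 lower, where 0.986% and 7.29% of all genes were. In cells with all 3 genes the median was 0.50, but 1 Gli2EKO cell of 47190 UMIs held 53.7% of the cell cycle UMIs of its 19 cells, at 92.8 per 10000 and with a lipid level of only 169. Without that cell, which was singled out after its values were seen, the median was -0.68. The basal list had medians of -0.61 over all sebocytes, 0.34 in cells with all 3 genes and 0.14 without that cell. Mki67, a marker of cycling cells, had 268 and 63 UMIs, of which the top cell held 40.3% and 57.1%. Among cells with all 3 genes Mki67 was at 73.3 and 73.1 CPM, and 36 of the 53 Gli2EKO UMIs lay in that cell. Lgr6, another upper follicle progenitor marker, had 55 and 12 UMIs with a log2 ratio of -1.74, which was 0.69 in cells with all 3 genes and -1.29 without that cell. Ccnd1, cyclin D1, stayed lower, at 241 and 67.8 CPM with -1.82 over all sebocytes, -1.38 in cells with all 3 genes and -1.90 without that cell.

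A small set of cells carried much of the signal of several genes. Over 177 listed genes with at least 50 UMIs in the control library, the top cell held a median of 12.1% of a gene's UMIs, and over 161 in the Gli2EKO library 14.4%. In 35 and 39 of them it held over 25%. In the lipid lists this was 7 of 96 and 10 of 95 genes. Krt10, a keratin of the suprabasal epidermis, was at 1567 CPM in control and 168 CPM in Gli2EKO sebocytes, but 57.1% and 49.6% of its UMIs lay in 1 cell each. Over all compared genes the top cell of either library held over 25% in 32 of the 54 higher and 140 of the 399 lower genes. Of the 54 higher genes 48 could be compared in cells with all 3 rule genes and 22 were at least 2-fold higher there too, and of the 399 lower genes 140 of 201. Over all 4329 genes compared in such cells, 0.993% were higher and 6.1% lower. These cells are part of those that made the calls, so agreement was likely in advance and adds little.

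**Figure D5:**
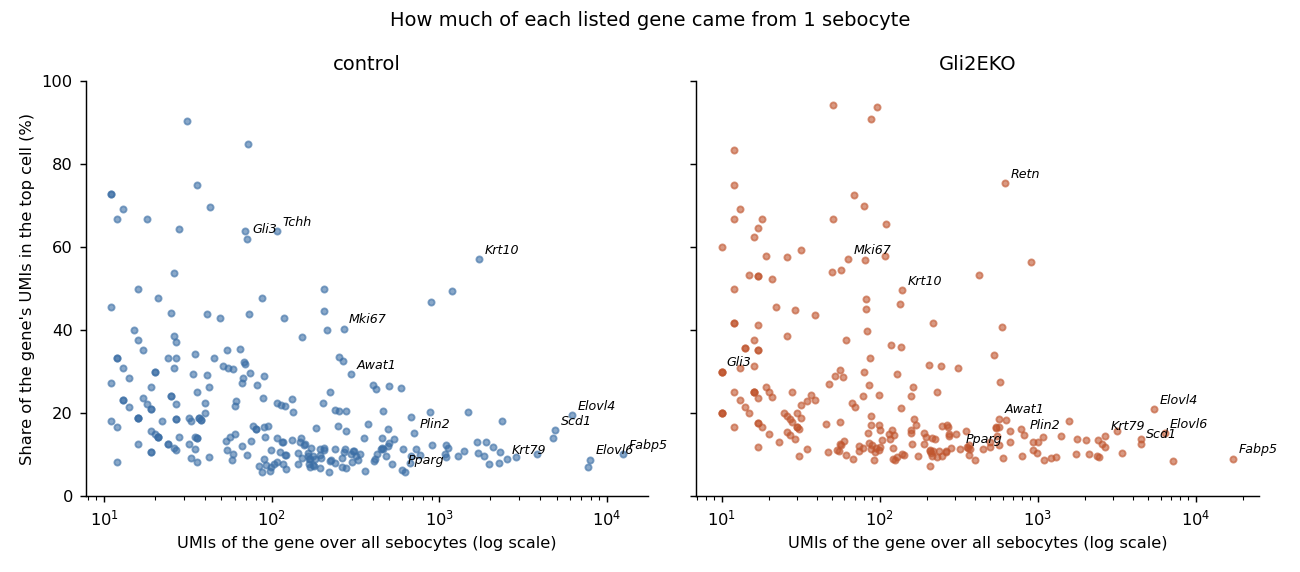
Share of a gene's UMIs that lay in the top sebocyte (y axis, percent) against its UMIs over all sebocytes (x axis, log scale), for listed genes with at least 10 UMIs in control (left) and Gli2EKO (right). Genes with many UMIs such as Elovl6 and Fabp5 lay between 8.76% and 15.1%, while Retn in Gli2EKO was at 75.4% and Krt10 in control at 57.1%.

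Markers of cell types outside the epithelium were low in the selected cells. Summed over their marker lists, immune genes were at 3.64 and 4.84 CPM, endothelial and mural genes at 19.1 and 12.1 CPM and melanocyte genes at 27.3 and 20.6 CPM. The fibroblast list of 9 genes was at 299 CPM in control and 120 CPM in Gli2EKO sebocytes, from 0 to 41.7 and from 0 to 3.58 per 10000 in single cells. The rule itself limited the fibroblast markers Col1a1 and Col1a2, so a low fibroblast level was in part set by that choice. In Gli2EKO 3 of the 5 compared genes of this fibroblast list were at least 2-fold lower, against 7.29% of all 5476 genes. Its part in the differences between libraries was not tested. Markers of other epithelial cells were higher. The suprabasal list was at 4949 CPM in control and 2885 CPM in Gli2EKO sebocytes, against 7220 and 11505 CPM in other keratinocytes. Single sebocytes reached 542 and 89.5 per 10000, with medians of 5.62 and 15.8. The inner root sheath and hair shaft list was at 412 and 151 CPM, against 1167 and 1406 CPM. Keratins of both lists were among those that chose the other keratinocytes, so these comparisons were in part set in advance. Adipocytes share Pparg, Cidea and Plin2 with sebocytes. Of the adipocyte list of 14 genes 9 had UMIs in sebocytes, while Adipoq and Cfd had 0 UMIs in both libraries. The list summed to 49.1 CPM in control and 802 CPM in Gli2EKO sebocytes, of which Retn made up 8.19 and 751 CPM, and 75.4% of the Gli2EKO UMIs of Retn came from 1 cell. In other keratinocytes the list was at 24.3 and 11.1 CPM.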

How the data were processed

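Single-cell RNA was measured in 1 control and 1 Gli2EKO library with a 10x 3′ assay. The authors processed the reads with Cell Ranger 9.0.1 against GRCm39 (GENCODE annotation) and deposited 1 filtered matrix per library, whose values are raw UMI counts per gene and barcode. CPM, percent and log2 values were computed here from the deposited counts in Python 3.11.15 (numpy 2.4.6, scipy 1.17.1).

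The limits on cells were those of the study, namely more than 1000 but fewer than 8000 detected genes and a mitochondrial share below 15%. Doublet removal by scDblFinder, part of the authors' own work, was not repeated, and Scrublet scores in scanpy 1.11.5 served as an alternative. UMIs were summed per library over the selected cells. Cells are not replicates, so no test was made. CPM have exact Poisson intervals, shares Clopper-Pearson intervals and log2 ratios, with 0.5 UMI added, exact conditional binomial intervals. Genes needed 50 UMIs over both libraries, or a mean of 25 CPM against other keratinocytes. The scripts were tested on simulated data.

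The members and the 24 gene lists were chosen with earlier results of these data known. Genes named without a list were the 15 with the largest sebocyte ratio and the 10 highest and 10 lowest between libraries, under the limits given in the text. Of 371 listed genes, 367 were in the files. The files pair 77 symbols with more than 1 identifier, and these were kept apart. Coordinates, spans and promoters came from GENCODE M39 of the same build. Alternatives are given in the closing section. Intervals cover counting error only, since amplification, capture and the choice of animals add to it. Some items are not reported here.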

Additional observations from a re-analysis of the deposited data

How the results depend on the processing

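Against 1.67% of control and 1.09% of Gli2EKO keratinocytes, sebocytes were 1.02% and 0.864% when all 3 genes were required, 1.13% and 0.760% in cells thinned to 5000 UMIs, and 0.950% and 0.714% of all cells. The 54 genes at least 2-fold higher became 86 with collagen under 5 per 10000, 32 after thinning, 105 by the mean of cell CPM, and 125 and 1755 with a minimum of 20 UMIs and of 1 UMI. The 399 lower genes became 24 after thinning and 937 and 4641 with these minimums. Thinning moved the median log2 ratio of all genes from -0.16 to 0.20, over 767 genes of which 4.17% were higher and 3.13% lower. The rule, applied again after thinning, kept 30 control and 16 Gli2EKO cells. Among the lists, requiring all 3 genes gave 0.10 for fatty acid synthesis, 0.21 for cholesterol synthesis, 0.11 for the 6 lipid lists together and 0.50 for the cell cycle, which turned its direction. Without the Gli2EKO cell with the most cell cycle UMIs these became 0.20, 0.30, 0.20 and -0.68. Thinning gave 0.77 for lipid droplet proteins. Fatty acid uptake was -0.074 and -0.10 with a minimum of 20 UMIs and of 1 UMI. Gli3 (0.14), Lgr6 (0.69) and Krt15 (0.10) turned when all 3 genes were required, but without that cell were 0.093, -1.29 and -1.70, and Krt10 (0.34) without members at 20 or more UMIs per 10000 of Krt1 plus Krt10. The median of the 6 lipid lists stayed between 0.11 and 0.57 and the log2 ratio of Ptch1 between -2.29 and -1.63 over all settings tried. Of the doublet scores, 3 of 46 control and 1 of 24 Gli2EKO sebocytes were among the highest 8% of their library. Another 4 settings were chosen after seeing the data: keratinocytes without a keratin minimum, members with at least 10000 UMIs, members without Krt1 and Krt10, and all 3 genes without the Gli2EKO cell named above. No paired analysis was possible because each genotype has 1 library, and no library could be left out. With 46 and 24 cells, genes under 50 UMIs were not compared, and levels under about 3 UMIs of a library cannot be told from 0.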

Other observations

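Enzymes of steroid and retinoid metabolism and genes of lysosomes and autophagy were also measured in sebocytes. In the steroid and retinoid list 8 of 9 genes were at least 2-fold higher in sebocytes than in other keratinocytes of both libraries, Cyp2g1 of the rule among them. Hsd17b2, which inactivates sex steroids, was at 282 CPM in control and 369 CPM in Gli2EKO sebocytes. Mgst1, a glutathione transferase of the endoplasmic reticulum, was at 2598 and 3865 CPM against 101 and 90.7 CPM in other keratinocytes. Sult2b1, which sulfates cholesterol, was at 121 and 296 CPM, with 20.3% and 31.4% of its UMIs in the top cell. In the lysosome list 2 of 15 genes were at least 2-fold higher in sebocytes of both libraries, near the 10.5% of all 6052 genes, and nothing is read from this count. They were Ctsd, the protease cathepsin D (454 and 808 CPM), and Map1lc3a, an autophagosome protein (613 and 957 CPM).

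Retn, which encodes resistin and is best known from fat cells, had 621 UMIs in Gli2EKO and 9 in control sebocytes. Of the 621, 1 cell held 468 and another 125. Adipoq had 0 UMIs in both cells, and Elovl4 stood at 267 and 260 per 10000 there, among the highest sebocytes. The control cell with 8 of the 9 Retn UMIs had Elovl4 at 211 per 10000. The first of these cells also held Cst6, a protease inhibitor of the upper follicle, at 120 per 10000. These cells were singled out after their values were seen.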
